A study of Homo sapiens with 22 samples.

Results

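Translation initiation and elongation factors were followed here through their exon usage in HEK293T cells (an established human cell line of embryonic kidney origin) after knockdown of HNRNPG or of either subunit of the m6A writer. The members were 10 gene models, and all rows of the exon table whose model name equalled a member name were taken. This gave 55 exonic bins in 9 models of the 2635 bins in 636 models of the table. EIF4E, the remaining member, had no row under that exact name. The table holds a model called EIF4E.1 with 2 bins on chromosome 4, and its values are given apart from the counts. The data came from 12 RNA-seq libraries of wild type and knockdown cells, in 6 groups of 2, and 10 crosslinking libraries of the series were not analysed here. The HNRNPG series had wild type controls and the HNRNPG knockdowns KD1 and KD2, and the METTL series had its own wild type controls, a METTL3 knockdown and a METTL14 knockdown. The sources used here do not say how the knockdowns were made.

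Protein synthesis starts when initiation factors bring a ribosome to the capped end of an mRNA, and it goes on as elongation factors deliver aminoacyl-tRNAs to that ribosome. The cap is bound by EIF4E, which works together with the scaffold EIF4G1. The eIF2 complex brings the initiator tRNA, and eIF3 joins the small ribosomal subunit to the mRNA. N6-methyladenosine (m6A) is a methyl mark that METTL3 and METTL14 write on RNA together, and HNRNPG, encoded by RBMX, is an RNA-binding splicing regulator of the nucleus. The study's title links m6A to the recruitment of HNRNPG and to alternative splicing.

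Exonic bins are the pieces that result when all exon boundaries of a gene model are laid over each other. Each value is the log2 of knockdown over control usage of 1 bin, relative to the rest of its model, so a negative value means lower usage in the knockdown. The values are the authors' comparisons, 1 per bin and knockdown, with neither errors nor p-values nor values of single libraries, so the depth behind a bin is unknown, no bin has a replicate check and no test was made. Levels of RBMX, METTL3 and METTL14 were not analysed here, so the knockdowns themselves were not checked. KD1 and KD2 share their control libraries, and so do the METTL3 and METTL14 knockdowns. By its name, the exon table covers only genes that contain m6A sites, called HC-m6A there. All bins of the table are thus not the bins of all expressed genes. All coordinates are hg19.

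Most changes of at least 0.5 lay in the joined model of EEF1D and NAPRT1, and the few outside it were in exon bin 51 of EIF4G1 and exon bin 51 of the joined model of TUT1 and EEF1G. A bin was counted as lower or higher when its change was at least 0.5 in size, a threshold of choice and not a test. In KD2, 20 of the 55 bins (36.4%) were lower by that much, against 13.9% of all bins of the table, and 19 of the 20 lay in the EEF1D and NAPRT1 model. In METTL3 knockdown 21 bins (38.2%) were lower, against 14.8% of all bins, and 20 of them lay in that model. Without it, 1 of 28 bins (3.57%), in TUT1andEEF1G, was lower by that much in each of these knockdowns. Over the 1029 bins of all joined models, 12.6% (KD2) and 10.8% (METTL3) were lower by that much. In KD2 and in METTL3 knockdown 1 member bin each was higher by 0.5, in EIF4G1, against 7.78% and 7.63% of all bins. In KD1 only 1 of the 55 bins was lower by 0.5 and 1 was higher, against 9.03% and 6.00% of all bins. METTL14 knockdown had 5 higher and 1 lower, against 5.46% and 10.6% of all bins. KD2 and METTL3 knockdown have separate controls, and 15 of the 55 bins (27.3%) were lower by 0.5 in both, against 6.41% of all bins. Of these 15, the EEF1D and NAPRT1 model held 14, and this pairing of knockdowns was not planned. Neighbouring bins share reads and a common denominator: 31 of the 55 bins abut another listed bin, and the 55 form 35 separate blocks.

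**Figure D1:**
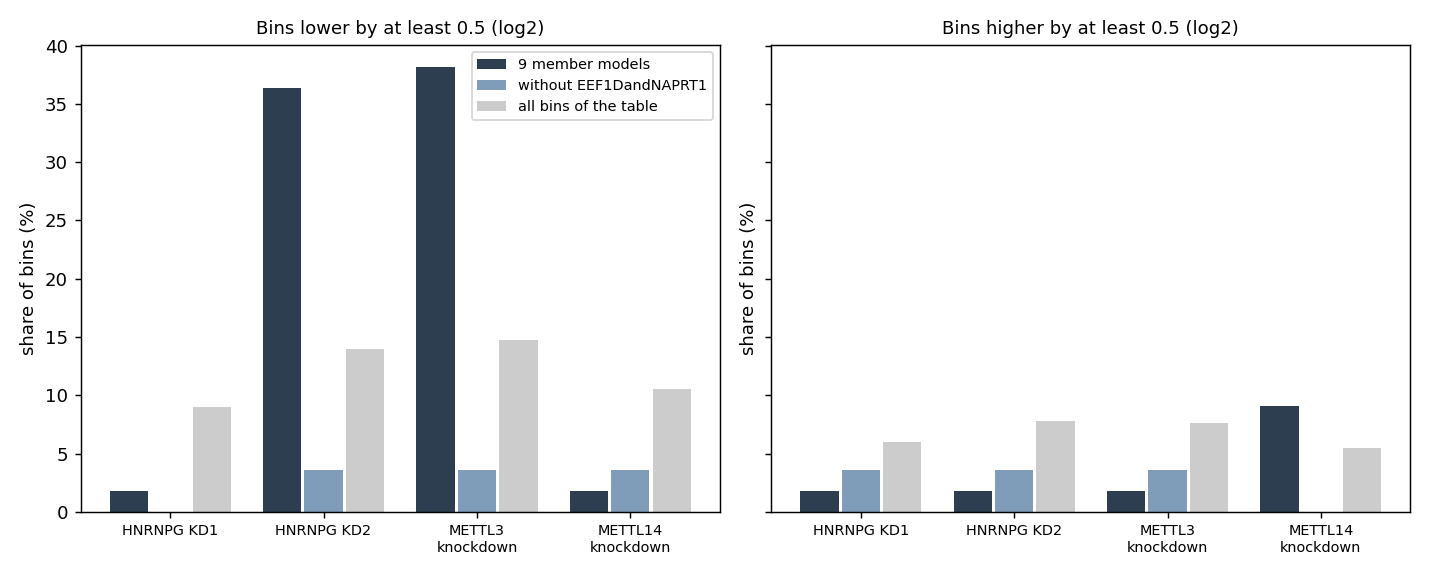
Share of exonic bins, in percent, lower (left) or higher (right) by at least 0.5 on the log2 scale in each knockdown, for the 9 member models, for the same models without EEF1DandNAPRT1 and for all 2635 bins. The dark bars for lower usage reach 36.4% in KD2 and 38.2% in METTL3 knockdown, and without the EEF1D and NAPRT1 model they stand at 3.57%.

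**Figure D2:**
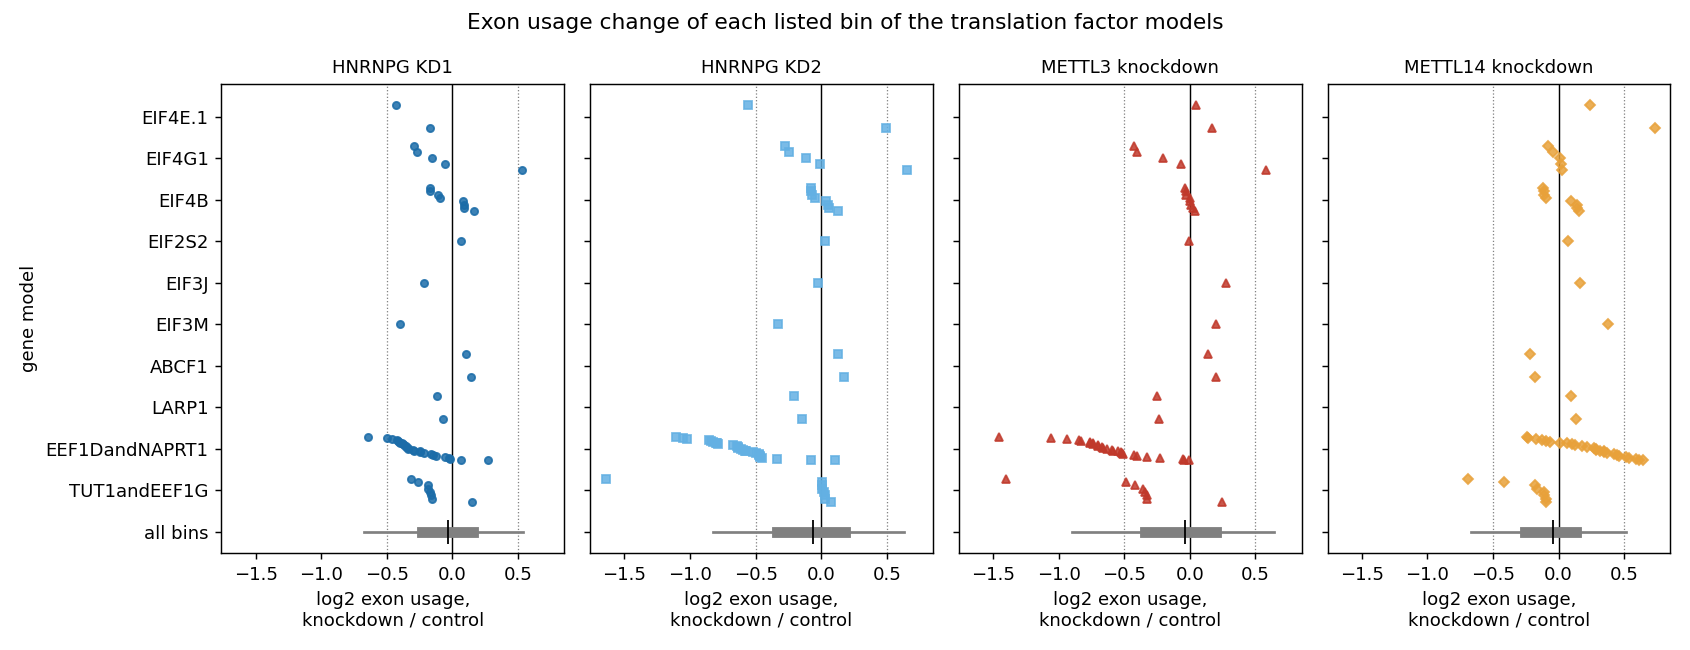
Exon usage change of every listed bin (log2 of knockdown over control, 1 point per bin) by gene model, with 1 panel per knockdown. Points within a model are ordered by value, dotted lines mark -0.5 and 0.5, and the bottom row gives all bins of the table, with the median as a tick, the interquartile range as a thick bar and the 5th to 95th percentile as a thin line. The points of EEF1DandNAPRT1 lie mostly left of 0 in KD1, KD2 and METTL3 and mostly right of it in METTL14 knockdown.

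The cap-binding complex was represented by EIF4G1 and by the model EIF4E.1. EIF4G1, the scaffold that ties the cap to the poly(A) tail and to the ribosome, had 5 listed bins on chromosome 3. Its exon bin 51 (184038631 to 184038714, 84 bp) had 0.53 in KD1, 0.65 in KD2, 0.58 in the METTL3 knockdown and -0.08 in the METTL14 knockdown in the authors' deposited table. This was the only bin of the 55 that was higher by 0.5 in KD1, in KD2 or in METTL3 knockdown, while its METTL14 value was near 0. The 4 listed bins nearer the 5′ end of EIF4G1 stood on the other side: in the authors' deposited table they ranged from -0.30 to -0.06 in KD1, from -0.27 to -0.01 in KD2 and from -0.43 to -0.07 in METTL3 knockdown. Their METTL14 values lay between -0.04 and 0.03 in the authors' deposited table. Exon bin 20 of EIF4G1 (184033313 to 184033333), 21 bp long, was the 1 bin of the gene below 0 in every knockdown, with -0.27, -0.24, -0.40 and -0.04 in the KD1, KD2, METTL3 and METTL14 columns of the authors' deposited table. The model has 2 listed m6A sites, and no listed bin lies within 6306 bp of either.

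EIF4E binds the cap itself. The model EIF4E.1 lies on chromosome 4, minus strand, and lists 2 bins. At its 3′ side, exon bin 2 (99800424 to 99801223, 800 bp) had -0.43 in KD1, -0.56 in KD2, 0.17 in the METTL3 knockdown and 0.24 in the METTL14 knockdown in the authors' deposited table. Exon bin 29 (99830829 to 99831111, 283 bp) had -0.17, 0.50, 0.05 and 0.73 in the same order in the authors' deposited table. The first bin was lower in both HNRNPG knockdowns and higher in both METTL knockdowns, and the second differed in sign between KD1 and KD2. Exon bin 29 contains 2 of the model's 5 listed m6A sites, at 99831069 and 99831076, and it is the only bin described for these factors that holds a listed site. None of the 55 bins of the other models does, against 96 of the 2635 bins of the table.

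EIF4B, which stimulates the helicase that unwinds the 5′ leader of mRNAs, had 8 listed bins on chromosome 12, and its changes were small. The 4 bins at its 3′ side, exon bins 57 to 60, abut each other (53434247 to 53435992) and ranged from -0.17 to -0.10 in KD1 in the authors' deposited table. They ranged from -0.08 to -0.05 in KD2 and from -0.12 to -0.10 in METTL14 knockdown in the authors' deposited table. The 4 bins upstream of them, exon bins 27, 32, 35 and 38, were all above 0 in those 3 knockdowns, from 0.08 to 0.16 in KD1, from 0.04 to 0.13 in KD2 and from 0.10 to 0.15 in METTL14 knockdown in the authors' deposited table. Upstream bins and 3′ bins did not overlap within these 3, but the split was made after the values were seen. How often other models separate in this way was not counted, so the separation is a description only. In METTL3 knockdown all 8 bins of EIF4B lay between -0.04 and 0.04 in the authors' deposited table, and the upstream and 3′ bins overlapped. Over all bins of the table the interquartile range ran from -0.23 to 0.16 in KD1 and from -0.26 to 0.13 in METTL14 knockdown. The EIF4B values lay inside it except those of exon bin 27 in KD1 and exon bins 27, 35 and 38 in METTL14 knockdown, which were marginally above it. The single listed m6A site of EIF4B is at least 20941 bp from any of these bins.

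**Figure D3:**
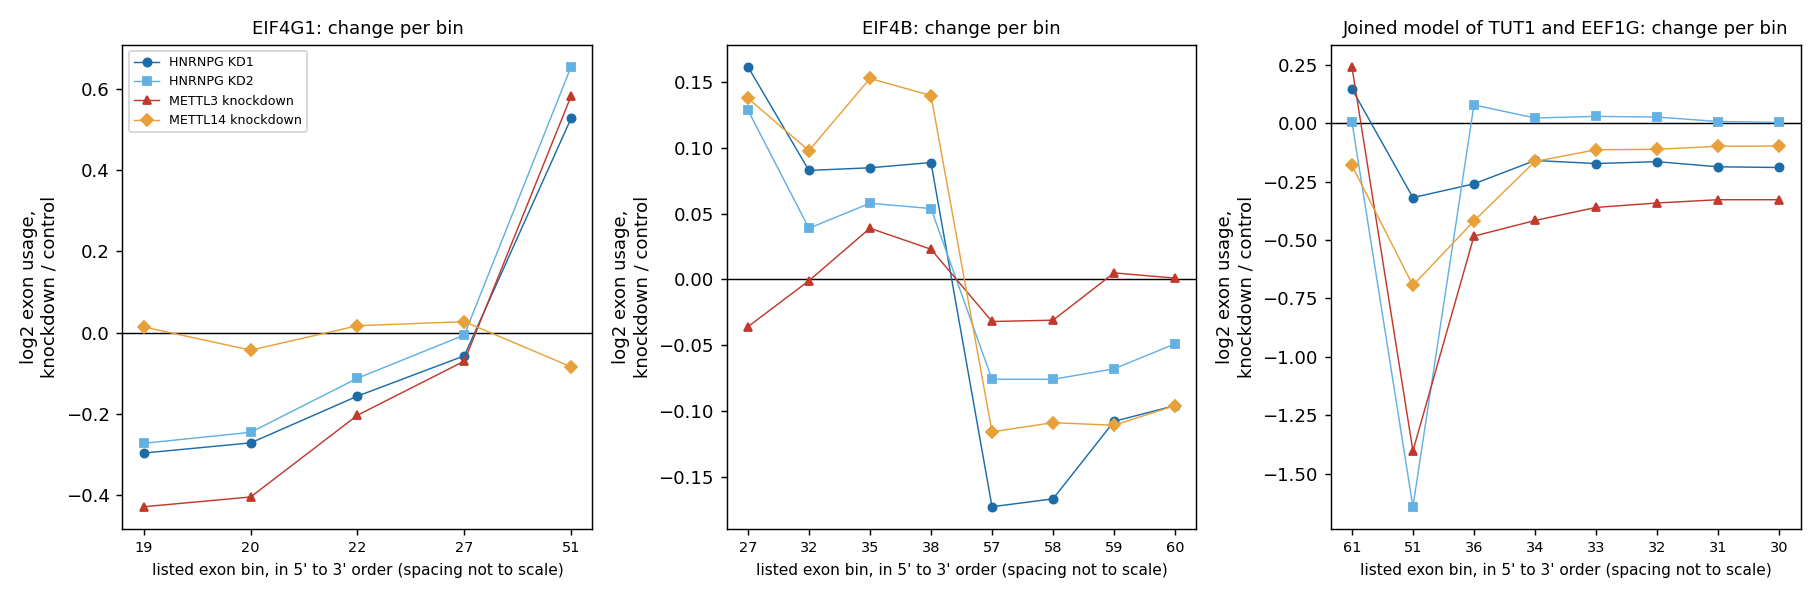
Exon usage change (log2 of knockdown over control) of each listed bin of EIF4G1, EIF4B and the joined model of TUT1 and EEF1G, in 5′ to 3′ order, with 1 line per knockdown; lines join neighbouring listed bins and the vertical scales differ. EIF4G1 bin 51 stands at 0.53 to 0.65 in 3 knockdowns and at -0.08 in METTL14, the 3′ bins of EIF4B lie below the upstream ones in KD1, KD2 and METTL14 knockdown, and TUT1andEEF1G bin 51 is at -1.64 in KD2.

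EIF2S2, EIF3J and EIF3M, factors that act on the small ribosomal subunit, had 1 bin each, and no change reached 0.5. Over all bins 15.0% (KD1), 21.7% (KD2), 22.4% (METTL3) and 16.0% (METTL14) reached that size. EIF2S2, the beta subunit of eIF2, had exon bin 25 (chromosome 20, 32693198 to 32693351) at 0.07, 0.03, -0.01 and 0.07 in the KD1, KD2, METTL3 and METTL14 columns of the authors' deposited table. None of these 4 values reached 0.1 in size. EIF3J, a loosely bound subunit of eIF3, had exon bin 18 (chromosome 15, 44855149 to 44855218) at -0.21, -0.02, 0.28 and 0.17 in the same order in the authors' deposited table. EIF3M, another eIF3 subunit, had exon bin 42 (chromosome 11, 32624188 to 32627809) at -0.40, -0.33, 0.20 and 0.37 in the authors' deposited table. Both eIF3 bins were below 0 in the HNRNPG knockdowns and above 0 in the METTL knockdowns, as was exon bin 2 of EIF4E.1. The EIF3J value in KD2 was close to 0, and the share of all bins with these signs was not counted. The listed bins of EIF3K, also a subunit of eIF3, did not have these signs. Its exon bins 2, 3 and 4, for example, were above 0 in every knockdown. The EIF3M bin is the longest of the 55, at 3622 bp.

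ABCF1, an ATP-binding cassette protein that associates with eIF2 and ribosomes, had 2 listed bins. Its exon bin 50 (chromosome 6, 30573781 to 30573931) stood at 0.14 in KD1, 0.17 in KD2, 0.14 in the METTL3 knockdown and -0.22 in the METTL14 knockdown in the authors' deposited table. The abutting exon bin 51 (668 bp) had 0.10, 0.13, 0.20 and -0.18 in the authors' deposited table. LARP1 binds the capped 5′ end of mRNAs for ribosomal proteins and translation factors, and links their translation to mTOR signalling. Exon bin 20 of LARP1 (chromosome 5, 154173385 to 154173482) stood at -0.12, -0.20, -0.23 and 0.14 in the KD1, KD2, METTL3 and METTL14 columns of the authors' deposited table. The abutting exon bin 19 (25 bp) had -0.07, -0.15, -0.25 and 0.10 in the authors' deposited table. In both genes the METTL14 value was opposite in sign to the other 3, in LARP1 above 0 and in ABCF1 below it. The share of all bins with such signs was not counted, and no value of either gene reached 0.5 in size. The values lay within or at the edge of the interquartile range over all bins. The exception was exon bin 20 of LARP1 in METTL14 knockdown, marginally above the upper end of 0.133.

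EEF1D and EEF1G are subunits of the exchange factor that reloads the elongation factor eEF1A with GTP, and both are listed only in joined models. EEF1D shares its model with NAPRT1 (current symbol NAPRT), an enzyme of NAD synthesis from nicotinic acid. In RefSeq these genes are neighbours on chromosome 8, with NAPRT at the lower coordinates. The model is on the minus strand, so EEF1D lies at its 5′ side. Usage in a joined model is relative to both genes, so a change in the level of one gene against the other and a change in splicing cannot be told apart, and bins were not assigned to either gene here. The model lists 27 bins, numbered up to 130, in 2 stretches on either side of its single listed m6A site at 144660473. The 3′ stretch holds 9 bins (144657361 to 144659347) and the 5′ stretch 18 bins (144669023 to 144679277), with 9675 bp between them.

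Across the 27 bins the median change was 0.28 in METTL14 knockdown, -0.34 in KD1, -0.61 in KD2 and -0.63 in METTL3 knockdown, where the medians over all 2635 bins were -0.04, -0.04, -0.06 and -0.04. Values in KD1 ran from -0.64 to 0.27 and in KD2 from -1.10 to 0.11 in the authors' deposited table. In METTL3 knockdown the authors' deposited table gave -1.46 to -0.01, with all 27 bins below 0, and in METTL14 knockdown -0.24 to 0.64, with 21 of 27 above 0. Over all bins 53.4% were below 0 in METTL3 and 43.4% above 0 in METTL14 knockdown, and 54.0% and 56.8% were below 0 in KD1 and KD2. KD2 and METTL14 have separate controls, and 20 of the 27 bins (74.1%) were lower in KD2 and higher in METTL14 knockdown, against 15.0% of all bins. This pairing was not planned, and its directions are those of the medians above. The 27 bins form 17 blocks of 1 model with a common denominator, so they are not separate measurements. Among the 62 models with at least 10 listed bins, a cut-off taken after the values were seen, this model had the lowest median in KD2, the 3rd lowest in METTL3 and the 7th highest in METTL14 knockdown. The METTL14 direction depends on how the model is summarised, since its longest bin, exon bin 87 (1407 bp), had -0.13 there in the authors' deposited table.

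The lowest KD1 and METTL3 values of the model were in exon bin 111 (144674259 to 144674338, 80 bp), in the 5′ stretch. It had -0.64 in KD1, -1.02 in KD2, -1.46 in the METTL3 knockdown and -0.10 in the METTL14 knockdown in the authors' deposited table. This bin was the only one of the 55 lower by 0.5 in KD1, and in METTL3 knockdown it ranked 29th from the lowest of all 2635 bins. Upstream of the stretch's bins 84 to 88, exon bins 108 and 109 abut (144673064 to 144673179). The first stood at -0.50, -0.84, -1.06 and 0.22 in the KD1, KD2, METTL3 and METTL14 columns of the authors' deposited table, and the second at -0.40, -0.85, -0.83 and 0.13. Exon bin 121 (144676586 to 144676631) stood at -0.42, -0.78, -0.84 and 0.01 in the same order in the authors' deposited table. These 4 bins were low in KD2 and METTL3 and between -0.10 and 0.22 in METTL14 knockdown.

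In the 3′ stretch the METTL14 values stood further above 0. Exon bin 10 (144657494 to 144657515, 22 bp) had -0.37 in KD1, -1.05 in KD2, -0.94 in the METTL3 knockdown and 0.64 in the METTL14 knockdown in the authors' deposited table. The abutting exon bin 9 (144657400 to 144657493) stood at -0.41, -1.10, -0.76 and 0.59 in the authors' deposited table. All 9 bins of the stretch were below 0 in KD1, KD2 and METTL3 and above 0 in METTL14 knockdown. The share of all bins with these signs was not counted, and the 2 knockdowns of each series share controls. The 9 bins form 7 blocks with a common denominator, so they are not separate measurements. Their METTL14 values ran from 0.34 to 0.64 in the authors' deposited table, with a median of 0.46, while the 18 bins of the 5′ stretch ran from -0.24 to 0.54 with a median of 0.11. KD2 also differed between the stretches, with medians of -0.79 (3′) and -0.51 (5′), and METTL3 the other way round, with -0.42 (3′) and -0.68 (5′). In KD1 the medians were alike, -0.34 and -0.32. The ranges of the stretches overlapped in every knockdown.

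Some bins of the model stood apart from their neighbours. Exon bin 88 (144671161 to 144671662, 502 bp) had -0.42, 0.11, -0.01 and 0.27 in the KD1, KD2, METTL3 and METTL14 columns of the authors' deposited table, while the abutting exon bins 84 to 87 were below 0 in every knockdown. The most 5′ listed bin, exon bin 130 (144679049 to 144679277), was at 0.27, -0.08, -0.05 and 0.44 in the authors' deposited table. Exon bin 88 was the only bin of the model above 0 in KD2.

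**Figure D4:**
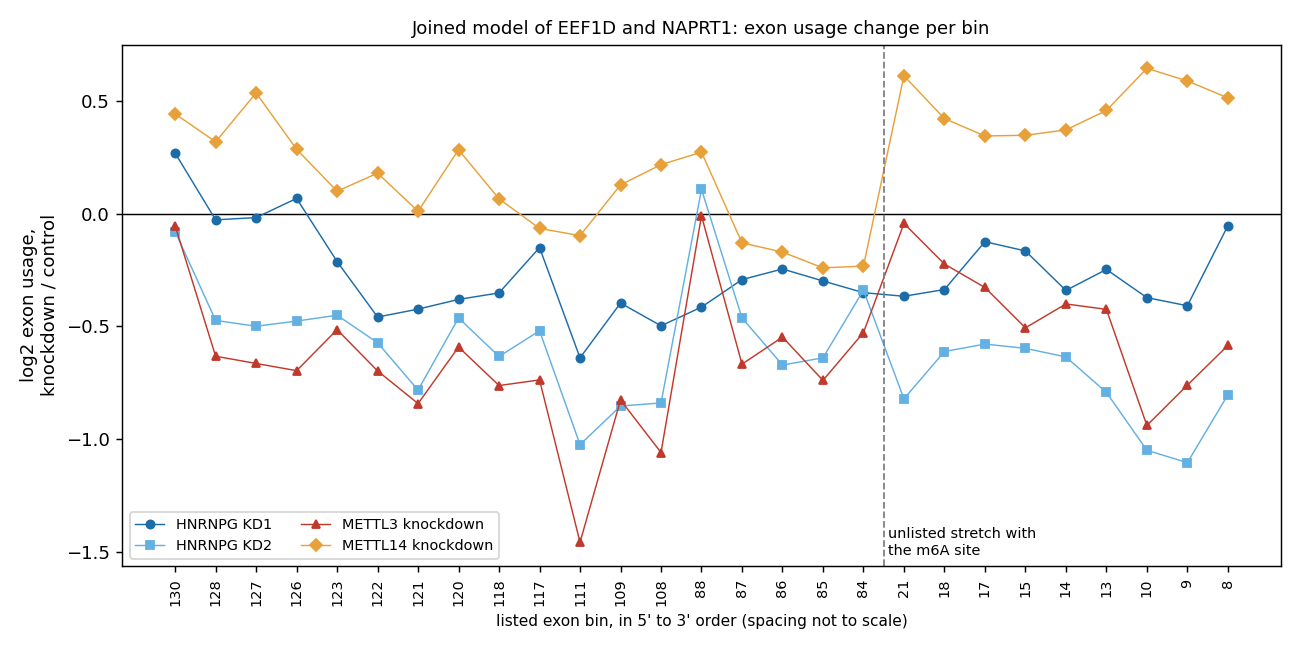
Exon usage change (log2 of knockdown over control) of the 27 listed bins of the joined model of EEF1D and NAPRT1, in 5′ to 3′ order from left to right, with 1 line per knockdown; lines join neighbouring listed bins, and the dashed line marks the stretch without listed bins that holds the m6A site. KD2 and METTL3 run mostly between -0.4 and -1.1, with a METTL3 low of -1.46 at bin 111, and METTL14 lies above 0 in all 9 bins to the right of the dashed line.

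EEF1G shares its model with TUT1, a nuclear enzyme that adds nucleotides to the 3′ ends of RNAs, and the same limit on joined models holds. In RefSeq they are neighbours on chromosome 11 with EEF1G at the lower coordinates, and the model is on the minus strand. Exon bin 51 (62344222 to 62344323, 102 bp) had -0.32 in KD1, -1.64 in KD2, -1.40 in the METTL3 knockdown and -0.69 in the METTL14 knockdown in the authors' deposited table. It was the lowest of the 55 bins in KD2 and METTL14 and below 0 in every knockdown, and ranked 30th and 32nd from the lowest of all 2635 bins in KD2 and METTL3. KD1 and KD2, both knockdowns of HNRNPG, differed by more than 1 on the log2 scale in this bin. The only other listed bins of the model are 6 bins at its 3′ side and 1 at its 5′ side.

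The 3′ bins, exon bins 30 to 34 and 36 (62341322 to 62341475), ranged from -0.26 to -0.16 in KD1 and from 0.00 to 0.08 in KD2 in the authors' deposited table. They ranged from -0.48 to -0.33 in METTL3 and from -0.42 to -0.10 in METTL14 knockdown in the authors' deposited table. They were below 0 in KD1 and both METTL knockdowns and marginally above it in KD2. Of these bins, 3 are 1 bp long and another 10 bp, so their nearly equal values are not separate measurements. Exon bin 61 (62346281 to 62346502) lies 28 bp from the listed m6A site of the model, the smallest distance among the 55 bins. Its values were 0.15, 0.01, 0.24 and -0.18 in the KD1, KD2, METTL3 and METTL14 columns of the authors' deposited table. None reached 0.5 in size, a size reached by 15.0%, 21.7%, 22.4% and 16.0% of all bins in that order. A relation to the site was not tested.

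Other genes of translation came from a list of 152 symbols of initiation, elongation and termination factors, cap and poly(A) regulators and aminoacyl-tRNA synthetases. Of these, 21 were in the table, with EIF4E counted through EIF4E.1, and outside the members they gave 42 bins in 11 models. Their counts of bins lower by 0.5 were 1 (KD1), 2 (KD2), 6 (METTL3) and 7 (METTL14), and of bins higher by 0.5 they were 5, 2, 10 and 2. In METTL3 knockdown 23.8% of the 42 bins were thus higher by 0.5, against 7.63% of all bins, and 14.3% were lower, against 14.8%. Of the 10 higher bins, 6 lay in the joined model of EEF1E1, MUTED and TXNDC5, whose bins were not assigned to single genes. The shares lower by 0.5 in KD1, KD2 and METTL14 were 2.38%, 4.76% and 16.7%, against 9.03%, 13.9% and 10.6% of all bins, and the shares higher were 11.9%, 4.76% and 4.76%, against 6.00%, 7.78% and 5.46%. Their medians were 0.01, -0.05, 0.06 and -0.05, and the median size in METTL3 knockdown was 0.43, against 0.26 over all bins.

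In the METTL14 comparison the lowest of these bins belonged to MKNK2, a kinase that phosphorylates EIF4E: exon bin 8 (chromosome 19, 2039856 to 2039953) stood at 0.38, 0.91, -0.70 and -1.09 in the KD1, KD2, METTL3 and METTL14 columns of the authors' deposited table. This bin was higher in both HNRNPG knockdowns and lower in both METTL knockdowns. EIF3K, an eIF3 subunit, had exon bin 20 (chromosome 19, 39121461 to 39121785) at 0.62, -0.16, 0.63 and 0.58 in the authors' deposited table. Exon bin 27 of EIF3K (39123541 to 39124329) went the other way in the METTL knockdowns, with 0.47, -0.05, -0.48 and -0.97 in the authors' deposited table. The joined model of PABPC4, a poly(A)-binding protein, and SNORA55 had exon bin 57 (chromosome 1, 40042462 to 40042521) at 0.54, 0.43, 0.26 and 0.59 in the authors' deposited table, higher in every knockdown. Its other 6 bins had METTL14 values from -0.65 to 0.16 in the authors' deposited table.

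Among the aminoacyl-tRNA synthetases, which charge tRNAs with their amino acids, MARS exon bin 83 (chromosome 12, 57911333 to 57911623) was above 0 in every knockdown, with 0.60, 0.45, 0.42 and 0.27 in the authors' deposited table. YARS exon bin 14 (chromosome 1, 33246747 to 33248004) stood at 0.12, -0.43, -1.21 and -0.60 in the authors' deposited table. SARS exon bin 14 (chromosome 1, 109757882 to 109760111) stood at -0.20, -0.25, -0.84 and -0.07 in the authors' deposited table. The other listed bin of YARS, exon bin 1, stood on the other side in METTL3 knockdown, at 0.71 in the authors' deposited table, while the other SARS bin, exon bin 13, had -0.98 there and the other MARS bin, exon bin 56, had 0.88.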

How the data were processed

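The deposited table holds log2 values of control over knockdown per exonic bin, computed by the authors, per the file headers. The sample descriptions name DEXSeq for it, and hg19, Cuffdiff, Cufflinks, TopHat 1.1.4, Bowtie 1.0.0 and Trimmomatic appear, without a stated step, among the tools of the submitters' processing notes. The version of DEXSeq and the normalization were not given in the sources used here. Nor was the rule for listing a bin, beyond the limit to m6A-containing genes in the table's name. The models have AceView names, and names joined by "and" span several genes.

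The sign was turned, so that positive means higher usage in the knockdown. Groups came from the sample titles. Changes of at least 0.5 in size were counted in each direction over the members and over all 2635 bins, with medians. No test was made, since no value per library was used. The counting was tested on simulated data. Abutting bins of a model were joined into blocks.

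The members and gene lists were chosen with earlier results of these data known. Bins were named if a change reached 0.5 in any knockdown, if all 4 lay on one side of 0, or if a bin had the largest median size of its model, with at most 6 per model. Bins given as ranges, and exon bins 88 and 130 of EEF1DandNAPRT1, exon bin 51 of ABCF1, exon bin 19 of LARP1 and exon bin 61 of TUT1andEEF1G, were named after their values were seen, as were the 6 of the 11 other translation models and the further bins of EIF3K, MARS, SARS and YARS. Sequences of the bins were not used here. Python 3.11.15, pandas 2.3.3, numpy 2.4.6 and matplotlib 3.10.9 were used.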

Additional observations from a re-analysis of the deposited data

How the results depend on the processing

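Counts of bins changed by at least 0.5 in either direction were 2 (KD1), 21 (KD2), 22 (METTL3) and 6 (METTL14). These are 3.64%, 38.2%, 40.0% and 10.9% of the 55 bins, against 15.0%, 21.7%, 22.4% and 16.0% of all bins. At a size of 1 the counts were 0, 4, 3 and 0 in that order, and at 0.25 they were 23, 29, 35 and 18. Shares over all bins at these sizes, and over all blocks or gene models, were not counted. The median size over the 55 bins was 0.19, 0.33, 0.40 and 0.16, against 0.19, 0.26, 0.26 and 0.19 over all bins. Single-gene models alone, 20 bins, gave 1, 1, 1 and 0. Their shares were thus 5.0%, 5.0%, 5.0% and 0.0%. Over all 1606 bins of single-gene models the shares were 17.6%, 24.7%, 26.3% and 18.8%. Without the EEF1D and NAPRT1 model, an alternative chosen after seeing the data, the counts were 1, 2, 2 and 1. Abutting bins taken as 1 block, also chosen after seeing the data, gave 2, 13, 13 and 3 of 35 blocks. By the median of each gene model they were 0, 1, 1 and 0 of 9 models, the 1 being EEF1DandNAPRT1 in both cases. Bins of at least 20 bp and the limit of 5 in size left all 4 counts as they were, and adding the EIF4E.1 bins, chosen after seeing the data, gave 2, 22, 22 and 7. Of 36 model medians 20 were below 0, against 21 by the mean, 20 by the longest bin and 18 with bins of at least 20 bp. The equal count by the longest bin holds changes of sign: EEF1DandNAPRT1 in METTL14 knockdown went from 0.28 to -0.13 (exon bin 87, 1407 bp), and TUT1andEEF1G from -0.18 to 0.15 in KD1 and from -0.35 to 0.24 in METTL3 knockdown. The other changes of sign over these 3 alternatives were in EIF4B, EIF4G1 and TUT1andEEF1G, from medians between -0.11 and 0.02.

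No paired analysis was possible because the values used are comparisons with no value per library, and no replicate was left out for the same reason. Planned counts of bins on one side in KD1 and KD2, or in all 4 knockdowns, were not made, since these comparisons share control libraries. Depth per bin is unknown, and abutting bins share reads, so the count of bins overstates the number of separate measurements.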

Other observations

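The joined model of EEF1E1, MUTED and TXNDC5 was the model of the translation list with the most bins higher by 0.5 in METTL3 knockdown. EEF1E1 is a scaffold of the multi-synthetase complex. The limit on joined models holds here too, and bins were not assigned to single genes. Exon bins 1 and 3 lie at 7880831 to 7883499, and the others at 8097545 to 8102828. The authors' deposited table gave 6 of the model's 7 bins between 0.51 and 0.99 in METTL3 knockdown, while exon bin 3 (chromosome 6, 7881755 to 7883499) stood at -0.51. The same 7 bins lay between -0.21 and 0.01 in METTL14 and between -0.52 and 0.02 in KD2 in the authors' deposited table. In KD1 exon bin 62 (34 bp) was lowest, at -0.79 in the authors' deposited table. Of the 7 bins, 4 abut each other, so they are not separate measurements. RPS6KB1, the kinase of ribosomal protein S6, had its lowest METTL3 value in exon bin 38 (chromosome 17, 58024821 to 58024947), at -0.53 in the authors' deposited table, and 0.44 in exon bin 52. The single bin of GIGYF2, a cap-linked translational repressor, and the 5 bins of FBXO17andSARS2 held 1 change of 0.5, which was 0.52 in exon bin 62 of FBXO17andSARS2 in METTL3 knockdown in the authors' deposited table. The bin of MOBKL2CandMKNK1 was at 0.68 in KD1 and -0.29 in KD2 in the authors' deposited table. These bins were chosen after their values were seen.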
